A study of Mus musculus with 12 samples.

Results

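C5ar1 and C5ar2 encode the receptors for the complement fragment C5a, and they were 2 of the 15555 genes in a table of read counts from mouse bone-marrow-derived macrophages. They were chosen from these same data because both were higher in the Cbl-/- and Cbl-b-/- libraries, and lower in the double-knockout libraries, than in wild type. The comparisons that chose them are therefore given as a description with no test. Both were among the 12671 genes kept by the filter on low counts.

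The series had 12 RNA-seq libraries, with 3 per genotype. The genotypes were wild type (WT), the single knockouts Cbl-/- and Cbl-b-/-, and a double knockout that lacks both genes by its label (DKO). Macrophages of every genotype were grown from marrow in medium with supernatant of L cells, which supplies the growth factor CSF-1, and adherent cells were collected on day 9. The labels' protocols name no stimulus. The proteins Cbl and Cbl-b attach ubiquitin to activated tyrosine kinases, including the receptor for CSF-1. The sources used here give neither the age of the mice nor how the alleles were made. Per the labels RNA was pooled in equal amounts, and nothing says that the 3 libraries of a genotype came from separate animals. The p-values below therefore set differences between genotypes only against the spread of these libraries. That spread may be technical and may leave out variation between animals.

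C5a is cut from complement protein C5 when the complement cascade is activated. C5aR1, the product of C5ar1, is a G protein-coupled receptor of myeloid cells that signals mainly through Gi proteins to drive chemotaxis, degranulation and cytokine release. C5aR2, the product of C5ar2 and also called C5L2, binds C5a and its shortened form C5a des-Arg, does not couple to G proteins and recruits beta-arrestin.

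The 2 genes are neighbours on chromosome 7 and are read from the same strand. C5ar1 (ENSMUSG00000049130) lies at chr7:16246743-16259540 on the minus strand of GRCm38, and C5ar2 (ENSMUSG00000074361) at chr7:16234585-16244154 on the same strand. The end of C5ar1 and the start of C5ar2 are 2588 bases apart. The bases just upstream of their RefSeq starts are shown because the 2 levels moved together across the genotypes described below. That shared pattern is also what chose the genes. Each line is read 5′ to 3′ towards the gene and comes from RefSeq on GRCm38.p6, and capitals mark matches to the 6 motifs named below.
C5ar1 start 16259338, chr7:16259339-16259512: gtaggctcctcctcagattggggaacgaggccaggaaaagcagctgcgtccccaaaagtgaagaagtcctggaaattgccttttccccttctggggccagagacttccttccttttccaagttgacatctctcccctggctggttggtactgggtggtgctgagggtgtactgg
C5ar2 start 16244154, chr7:16244155-16244404: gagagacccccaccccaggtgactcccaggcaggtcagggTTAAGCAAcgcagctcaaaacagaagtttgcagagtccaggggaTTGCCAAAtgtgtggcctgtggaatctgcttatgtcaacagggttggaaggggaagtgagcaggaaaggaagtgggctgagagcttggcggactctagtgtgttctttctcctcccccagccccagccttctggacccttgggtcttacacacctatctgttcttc
C5ar2 start 16242331, chr7:16242332-16242581: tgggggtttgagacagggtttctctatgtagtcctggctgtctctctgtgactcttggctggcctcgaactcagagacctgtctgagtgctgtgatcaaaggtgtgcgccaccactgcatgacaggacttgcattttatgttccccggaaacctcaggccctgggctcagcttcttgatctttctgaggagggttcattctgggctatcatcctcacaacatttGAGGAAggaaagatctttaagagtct

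The search covered the 250 bases before each start on both strands, and the C5ar1 line is cut to 174 bases because an annotated exon lies farther upstream. The window of the upstream C5ar2 start held a pair of matches to the C/EBP motif TTGCNNAA, TTAAGCAA at -210 and TTGCCAAA at -166, counted from the start. The window of the downstream C5ar2 start, which lies inside the C5ar2 span, held 1 match to the PU.1 core GAGGAA at -26. No match overlapped another. The C5ar1 window held none of these letters, nor those of NF-kB (GGG, any 2 bases, TTTCC), AP-1 (TGANTCA), the interferon-response motif (GAAA, any 2 bases, GAAA) or the CRE core (TGACGT). The C5ar1 start used, 16259338, lies inside the C5ar1 span given above, and so do all its printed bases. Its window ended at 16259588, so the search says little of the bases before that span. Of 32851 promoter windows of the same length, 9.56% held the C/EBP letters and 23.3% the PU.1 core. The shares were 1.41% for NF-kB, 6.75% for AP-1, 2.98% for the interferon-response motif and 6.47% for the CRE core. A match is a description of the letters and does not show a binding site.

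The targeted genes were examined first. Levels are given as CPM, counts scaled to library size and composition by the TMM method of edgeR. Cbl (chr9:44142976-44234049) averaged 140 ± 3.4 CPM in WT and 139 ± 3.0 in Cbl-b-/- (SD, n = 3). It averaged 51.5 ± 2.3 CPM in Cbl-/- and 37.6 ± 3.1 in DKO, a log2 fold change from WT of -1.44 and -1.90 (adjusted p = 7.4e-11 and 2.4e-12, edgeR). Cblb, the gene of Cbl-b (chr16:52031225-52208048), averaged 59.4 ± 3.5 CPM in WT and 52.8 ± 2.9 in Cbl-b-/-. Cbl-/- reached 68.5 ± 0.69 CPM and DKO 71.7 ± 3.2. Against WT its log2 fold change was -0.17 in Cbl-b-/- (adjusted p = 0.46, edgeR) and 0.27 in DKO (adjusted p = 0.0027, edgeR). The Cblb transcript thus was not lower in the libraries labelled DKO, and counts per gene do not show whether an exon is missing. Cbl-b-/- and DKO below stand for the libraries so labelled. Total counts were 21048103 to 43946503 per library. The library DKO 3 stood apart from its partners: the chi-square per degree of freedom over genes was 44.7 and 55.3 against DKO 1 and DKO 2, and 3.93 to 12.3 for all other pairs within a genotype. Means, ranks and fitted differences of C5ar1 and C5ar2 that rest on DKO are therefore also given without DKO 3.

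C5ar1 was an abundant transcript in every genotype. In WT it had 251.9, 296.7 and 207.5 CPM (10588, 11563 and 5807 counts). The Cbl-/- libraries had 707.6, 751.2 and 899.0 CPM. The Cbl-b-/- libraries had 496.1, 524.9 and 528.7 CPM. These 6 libraries were all above the highest WT library. The 3 DKO libraries had 101.5, 113.8 and 97.2 CPM (3641, 3579 and 4007 counts), all below the lowest WT library. The order of the means was Cbl-/- (786 ± 100 CPM, SD, n = 3), Cbl-b-/- (517 ± 18), WT (252 ± 45) and DKO (104 ± 8.6), and no pair of neighbours in that order overlapped. The nearest libraries of Cbl-/- and Cbl-b-/- differed 1.34-fold, those of Cbl-b-/- and WT 1.67-fold, and those of WT and DKO 1.82-fold. Without DKO 3 the DKO mean was 107.7 CPM and that last fold was again 1.82.

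C5ar2 followed the same order from a far lower level. In WT it had 2.69, 2.59 and 2.93 CPM (113, 101 and 82 counts). The Cbl-/- libraries had 23.5, 24.2 and 26.3 CPM (722, 586 and 939 counts). The Cbl-b-/- libraries had 15.3, 15.5 and 18.1 CPM (527, 481 and 394 counts). Every single-knockout library thus lay above every WT library. The DKO libraries had 1.00, 0.859 and 1.31 CPM, from only 36, 27 and 54 counts, and lay below every WT library. The means were 24.7 ± 1.5 CPM in Cbl-/- (SD, n = 3), 16.3 ± 1.6 in Cbl-b-/-, 2.74 ± 0.17 in WT and 1.06 ± 0.23 in DKO, again with no overlap between neighbours. The nearest libraries of Cbl-/- and Cbl-b-/- differed 1.3-fold, those of Cbl-b-/- and WT 5.22-fold, and those of WT and DKO 1.98-fold. Without DKO 3 the DKO mean was 0.931 CPM and that last fold was 2.58. In bulk RNA, fewer cells that express a receptor and less RNA per cell cannot be told apart.

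**Figure D1:**
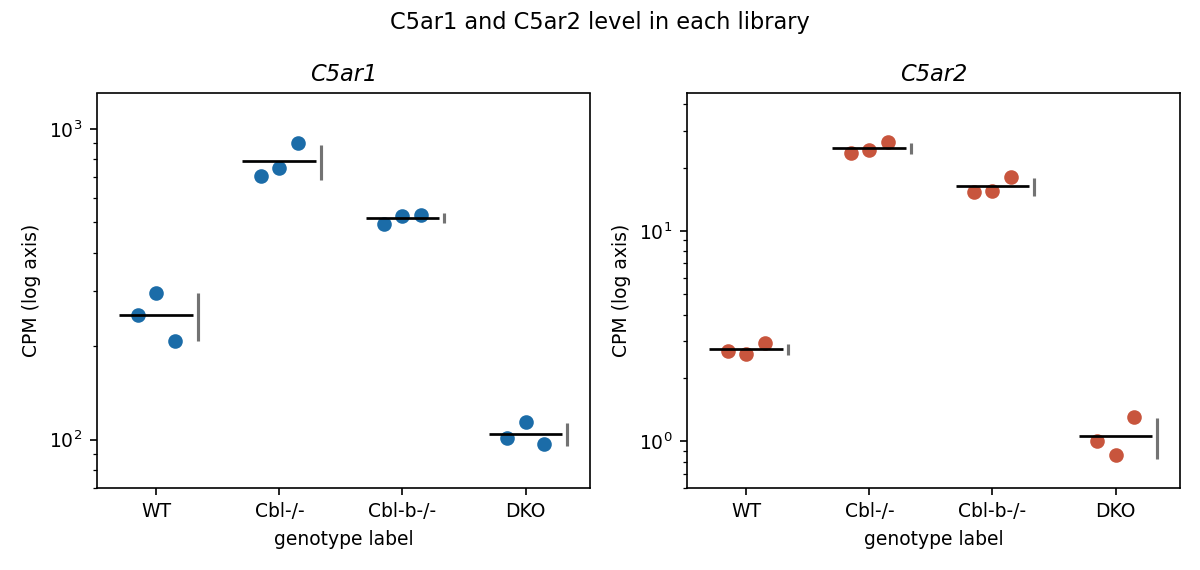
Level of C5ar1 (left) and C5ar2 (right) in CPM on log axes, by genotype label. Points are the 3 libraries of a genotype, black lines their mean and grey bars ± 1 SD. For both genes the DKO libraries sit below WT and the Cbl-/- and Cbl-b-/- libraries above it, with Cbl-/- the highest.

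The fitted differences put numbers on this order. C5ar1 was 3.12-fold higher in Cbl-/- than in WT (log2 fold change 1.64, SE 0.114) and 2.05-fold higher in Cbl-b-/- (1.03, SE 0.112). In DKO it was 2.42-fold lower than in WT (log2 fold change -1.28, SE 0.114, and -1.23 without DKO 3). For C5ar2 the single-knockout differences were larger, 9.05-fold in Cbl-/- (log2 fold change 3.18, SE 0.122) and 5.95-fold in Cbl-b-/- (2.57, SE 0.123). Its difference in DKO was close to that of C5ar1, 2.54-fold lower than WT (log2 fold change -1.34, SE 0.159, and -1.54 without DKO 3). Ranked by log2 fold change among the 12671 genes, C5ar2 was number 14 from the top in Cbl-/- and number 6 in Cbl-b-/-, and C5ar1 number 68 and number 91. These comparisons share the WT libraries.

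Measured against the single knockouts, the DKO level was lower still. C5ar1 was 7.55-fold lower in DKO than in Cbl-/- (log2 fold change -2.92, SE 0.12) and 4.96-fold lower than in Cbl-b-/- (-2.31, SE 0.117). Without DKO 3 these log2 fold changes were -2.87 and -2.26. C5ar2 was 22.9-fold lower in DKO than in Cbl-/- (log2 fold change -4.52, SE 0.138) and 15.1-fold lower than in Cbl-b-/- (-3.92, SE 0.139), and without DKO 3 the values were -4.72 and -4.11. The departure of DKO from the summed log2 differences of both single knockouts from WT would be 0 if these added up. It was -3.95 for C5ar1 (SE 0.163) and -7.09 for C5ar2 (SE 0.185), which were number 9 and number 3 from the bottom of the 12671 genes. Without DKO 3 it was -3.90 and -7.29, number 13 and number 1 from the bottom of the 12825 genes then kept.

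The balance between the 2 receptors also differed between genotypes. Levels of different genes are compared here as TPM, which corrects for exon length (2570 bases for C5ar1 and 3561 for C5ar2 in GENCODE). Mean C5ar1 was 1016 ± 130 TPM in Cbl-/-, 657 ± 33 in Cbl-b-/-, 315 ± 57 in WT and 124 ± 12 in DKO (SD, n = 3). Mean C5ar2 was 23.0 ± 1.3, 15 ± 1.8, 2.47 ± 0.16 and 0.903 ± 0.17 TPM in the same order. By mean TPM among 15506 genes, C5ar1 ranked 105 in Cbl-/- and 1206 in DKO, and C5ar2 ranked 5596 and 11276. Without DKO 3 the DKO means were 130.2 and 0.815 TPM and the DKO ranks 1160 and 11407. The TPM of C5ar1 divided by that of C5ar2 was 129.8, 158.6 and 98.1 in WT and 140.1, 183.7 and 102.8 in DKO. These ranges overlapped. The ratio was 41.8, 43.0 and 47.3 in Cbl-/- and 44.9, 47.1 and 40.5 in Cbl-b-/-, which also overlapped each other but lay below every WT and DKO library. Its mean was 44.0 ± 2.9 in Cbl-/-, 44.2 ± 3.4 in Cbl-b-/-, 129 ± 30 in WT and 142 ± 40 in DKO (SD, n = 3), and 161.9 in DKO without DKO 3. The ratio is made from the values that chose the genes and was not tested.

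**Figure D2:**
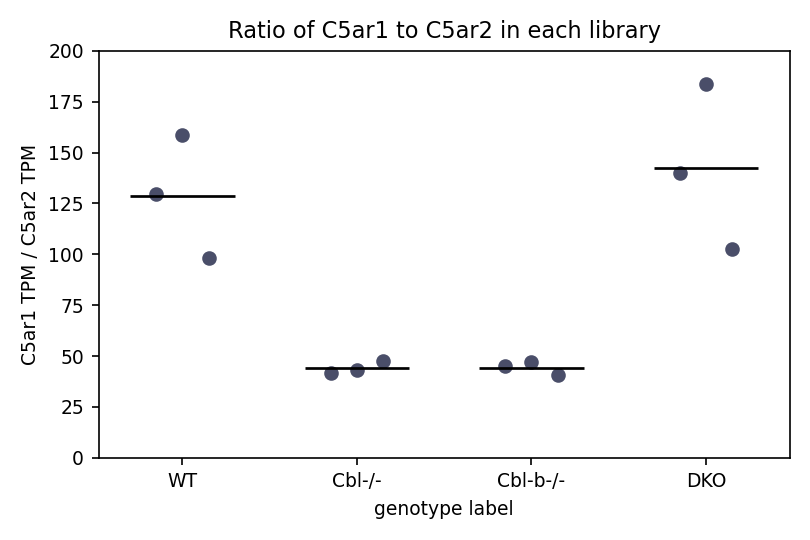
C5ar1 TPM divided by C5ar2 TPM in each library, by genotype label, on a linear axis from 0. Points are libraries and lines are the mean of 3; Cbl-/- and Cbl-b-/- libraries lie between 40.5 and 47.3, and WT and DKO libraries between 98.1 and 183.7.

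Which single knockout had the higher level was not part of the choice of the genes and could be tested. The test itself was chosen with earlier results of these data known. Both receptors were lower in Cbl-b-/- than in Cbl-/-, each 1.52-fold. The log2 difference, Cbl-b-/- minus Cbl-/-, was -0.61 for C5ar1 (SE 0.111, 95% interval -0.824 to -0.388, adjusted p = 0.0033 by edgeR's quasi-likelihood test). It was -0.60 for C5ar2 (SE 0.105, 95% interval -0.809 to -0.399, adjusted p = 0.0015 by the same test). Both intervals use a normal quantile that makes no allowance for the few libraries, so they may be too narrow. All 3 Cbl-b-/- libraries were below all 3 Cbl-/- libraries for both genes. The share of all genes that separated in this way was not counted, so nothing is read from it. Over all genes tested, 7.37% were called in this comparison, with 4.12% lower in Cbl-b-/-. Leaving out each library in turn gave -0.68 to -0.50 for C5ar1 (adjusted p = 0.00036 to 0.025, edgeR) and -0.69 to -0.56 for C5ar2 (adjusted p = 8.3e-05 to 0.017, edgeR).

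Few genes shared the pattern of the receptors. Over all genes tested, 5.68% were called higher and 4.19% lower in Cbl-/- than in WT, and 0.395% higher and 0.0947% lower in Cbl-b-/-, at an adjusted p of 0.05. In DKO 19.1% were called higher and 16.3% lower (2423 and 2062 genes, and 1773 and 2873 with total-count scaling). Only 3 genes, or 0.0237%, were called higher in both single knockouts and lower in DKO: C5ar1, C5ar2 and Mcoln3, which encodes a cation channel of endosomes and lysosomes. Since this is the pattern that chose the receptors, nothing is read from their own calls. The number of such genes was 6 with scaling by total counts, 5 with DESeq2, 5 without DKO 2 and 8 without DKO 3. A looser count asked for every single-knockout library above, and every DKO library below, every WT library, and 35 genes (0.276%) met it.

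Mcoln3, on chromosome 3, had smaller differences than the receptors, which were chosen for theirs. Its level was 8.02, 7.65 and 8.11 CPM in WT and 17.7, 14.8 and 13.8 in Cbl-/-. It was 15.2, 14.5 and 14.2 CPM in Cbl-b-/- and 5.02, 4.01 and 4.73 in DKO. The single-knockout libraries overlapped each other, and both lay above WT, with DKO below it. The log2 fold changes against WT were -0.78 in DKO, 0.96 in Cbl-/- and 0.89 in Cbl-b-/-.

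Likeness to each receptor was measured as Pearson's r of log2 CPM over the 12 libraries, among 521 genes that averaged at least 1 log2 CPM and had genotype means spanning at least 1 on the log2 scale. The libraries share genotypes and depth, so r is a description of their common order. The receptors were close to each other, at r = 0.971. Both were chosen from these libraries for the same pattern, so a high r between them follows from that choice. C5ar2 was the gene most like C5ar1, followed by Mcoln3 (0.957), the receptor tyrosine kinase gene Epha2 (0.950), the collagen IV gene Col4a2 (0.940) and the actin-associated gene Palld (0.937). Most like C5ar2 were Mcoln3 (0.975), C5ar1, the neutrophil collagenase gene Mmp8 (0.930), Col4a1 (0.916) and Col4a2 (0.907). None of these genes other than the receptors and Mcoln3 was called higher in Cbl-b-/-. Col4a2 had log2 fold changes of -0.99 in DKO, 1.06 in Cbl-/- and 0.26 in Cbl-b-/-, and Col4a1 -0.77, 1.08 and 0.31. Epha2 had -0.75, 0.47 and 0.14.

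**Figure D3:**
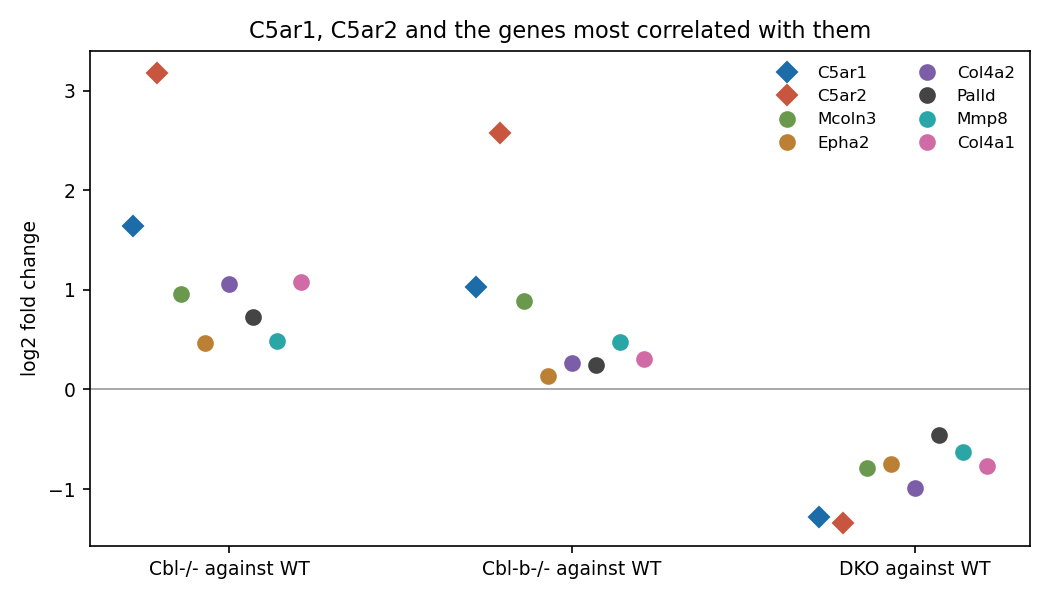
Log2 fold change against WT in Cbl-/-, Cbl-b-/- and DKO for C5ar1 and C5ar2 (diamonds) and the 6 other genes most correlated with them over the 12 libraries (circles), with no error bars drawn. All 8 genes lie above 0 in both single knockouts and below 0 in DKO, and C5ar2 lies farthest from 0 in each comparison. C5ar1 and C5ar2 were chosen for this pattern, and the circles for their likeness to it.

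The genes around the receptors did not move with them as a block. Within 200 kb on either side, 19 other genes are annotated, 13 were in the table and 12 were tested. Of these 12, 5 were called in Cbl-/- against WT, where 9.87% of all genes were. Meis3, a homeobox gene (log2 fold change 1.19, adjusted p = 0.0010), Dhx34, an RNA helicase gene (0.48, adjusted p = 0.0049), and Sae1, a subunit of the SUMO-activating enzyme (0.30, adjusted p = 0.00067), rose by edgeR's test. Tmem160 (-0.57, adjusted p = 0.00080) and Inafm1 (-0.37, adjusted p = 0.034) fell. The Inafm1 call was lost with total-count scaling (adjusted p = 0.052) and without any one of WT 1, WT 2, WT 3, Cbl-/- 1 or Cbl-/- 2 (adjusted p = 0.066 to 0.14).

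In Cbl-b-/- none of the 12 neighbours was called by edgeR, DESeq2 or limma voom, and 1 had an unadjusted p under 0.05. The share over all genes was 0.489%. In DKO, where 35.4% of all genes were called, 4 neighbours were. Inafm1 (-0.80, adjusted p = 2e-05), Dhx34 (-0.35, adjusted p = 0.015) and Ccdc9 (-0.24, adjusted p = 0.019) fell, and Napa, which acts in membrane fusion, rose (0.21, adjusted p = 0.0054), by edgeR's test. Ccdc9 was lost without WT 2 or WT 3 (adjusted p = 0.050 and 0.069), and Napa with total-count scaling (0.052).

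Dhx34 is the nearest tested gene on the C5ar2 side, 12547 bases beyond the end of C5ar2 and on the same strand. Its libraries followed the order of the receptors in a narrow range. It had 19.0, 18.6 and 18.1 CPM in WT and 26.5, 24.8 and 26.4 in Cbl-/-. It had 24.1, 24.0 and 22.0 CPM in Cbl-b-/- and 15.6, 16.6 and 11.8 in DKO. No Cbl-/- or Cbl-b-/- library overlapped WT, and no DKO library did. Its r with C5ar1 was 0.948 and with C5ar2 0.905, outside the 521 genes because its genotype means span less than 1. The difference in Cbl-b-/- was 0.33 (SE 0.10, adjusted p = 0.29, edgeR), and it passed only without DKO 3 (adjusted p = 0.015). Its call in DKO was lost when WT and DKO alone were fitted (adjusted p = 0.059) and without WT 1 (0.055).

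**Figure D4:**
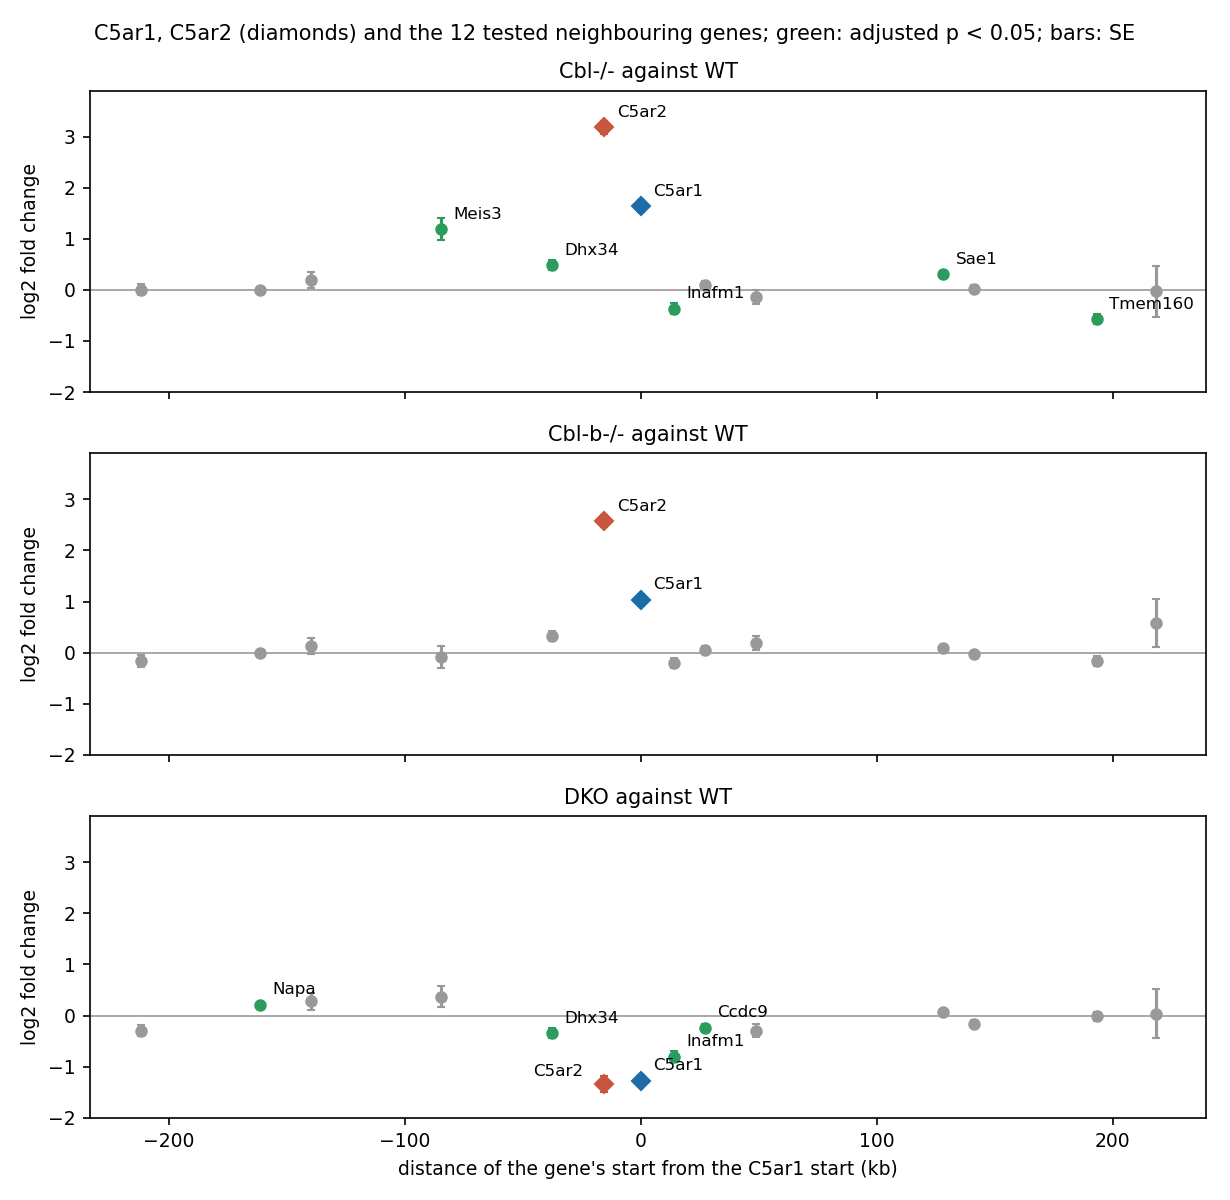
Log2 fold change against WT (with SE bars) of C5ar1 and C5ar2 (diamonds) and 12 tested neighbours (circles, green where the adjusted p was under 0.05), by distance of the gene's start from that of C5ar1 in kb, for Cbl-/-, Cbl-b-/- and DKO. In each panel the receptors, which were chosen for their differences, lie farther from 0 than any neighbour. Among the neighbours Dhx34 alone is called up in Cbl-/- and down in DKO.

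The other genes of the C5a pathway were described through 5 lists with 81 genes, of which 70 were in the table and 63 were tested. Against WT, 6 rose and 7 fell in Cbl-/- (20.6% of the list, and 9.87% of all genes). In Cbl-b-/- 2 rose and none fell (3.17%, and 0.489% of all genes), and 10 had an unadjusted p under 0.05. In DKO 26 rose and 11 fell (58.7%, and 35.4% of all genes). The median log2 fold change over the 63 genes was 0.076, 0.034 and 0.198, beside -0.006, 0.001 and -0.003 over all genes. The count in Cbl-/- was 8 without Cbl-/- 3, 21 without DKO 3 and 24 when only Cbl-/- and WT were fitted. The count in Cbl-b-/- was 0 without WT 1 or WT 3 and 1 without Cbl-b-/- 2, Cbl-b-/- 3 or DKO 3.

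On the side of the ligand, C5 itself was all but absent: Hc, the mouse C5 gene, had at most 1 count in any library. Of 10 tested genes for C5a production and removal, 2 rose and 1 fell in Cbl-/-, 1 rose in Cbl-b-/-, and 4 rose and 1 fell in DKO. The shares called over all genes were 9.87%, 0.489% and 35.4% in that order. C3, the central complement protein upstream of C5 cleavage, had 13.7, 15.6 and 14.2 CPM in WT and 38.8, 44.2 and 43.1 in Cbl-/-. It had 21.6, 32.4 and 19.9 CPM in Cbl-b-/- and 105.1, 107.0 and 102.4 in DKO. C3 was thus highest where the receptors were lowest, with log2 fold changes of 1.53, 0.77 and 2.85 (adjusted p = 1.8e-06, 0.015 and 7.1e-10, edgeR). The call in Cbl-b-/- was lost when only Cbl-b-/- and WT were fitted (adjusted p = 0.17) and without WT 1, WT 3 or DKO 3 (0.067 to 0.11).

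Among genes that restrain the cascade or clear its fragments, Cd55 and Cpd rose in DKO. Cd55, a membrane inhibitor of the C3 convertase, had 0.706 ± 0.22 CPM in WT and rose to 4.85 ± 0.87 in DKO (SD, n = 3, log2 fold change 2.80, adjusted p = 1.4e-06, edgeR). Cpd, a carboxypeptidase of the family that trims C-terminal arginine, rose by 0.36 in Cbl-/- and 0.32 in DKO on the log2 scale (adjusted p = 9.3e-05 and 8.0e-05, edgeR).

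The other complement receptors did not show the pattern of C5ar1 and C5ar2. C3ar1, the receptor for the related fragment C3a, averaged 1385 ± 81 CPM in DKO, 1294 ± 39 in WT, 1181 ± 48 in Cbl-/- and 1149 ± 56 in Cbl-b-/- (SD, n = 3). Its Cbl-/-, Cbl-b-/- and DKO log2 fold changes were -0.13, -0.17 and 0.10, with adjusted p = 0.18 and 0.36 in the single knockouts (edgeR). The Cbl-/- value passed when only Cbl-/- and WT were fitted (adjusted p = 0.028) and without DKO 3 (0.039). Of 8 tested genes of this list, 1 fell in Cbl-/-, Cd59a, a membrane inhibitor of the terminal complex (-0.73, adjusted p = 2.6e-04, edgeR). None was called in Cbl-b-/- by edgeR, DESeq2 or limma voom, and 2 had an unadjusted p under 0.05. The share of the list called was 12.5% in Cbl-/- and 50.0% in DKO, beside 9.87% and 35.4% of all genes. In Cbl-b-/- 0.489% of all genes were called. In DKO, 3 genes of the list rose and 1 fell. The integrin subunits of complement receptors Itgax (0.76, adjusted p = 9.3e-06) and Itgb2 (0.38, adjusted p = 1.7e-05) rose, as did C1qbp (0.31, adjusted p = 2.4e-04), while the scavenger receptor gene Lrp1 fell (-0.39, adjusted p = 0.0082, edgeR).

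The signalling machinery below C5aR1 showed smaller differences than the receptors. Since the receptors were chosen for their differences in these data, nothing is read from that contrast. Gnai2, the main Gi alpha subunit of leukocytes, had 1064 ± 27 CPM in WT and 1109 ± 48 in Cbl-/- (SD, n = 3), with 1082 ± 5.4 in Cbl-b-/- and 1079 ± 100 in DKO. Of 23 tested G protein signalling genes, 3 fell in Cbl-/-, namely Plcb4 (-0.57), the G protein gamma subunit gene Gng2 (-0.21) and Gng10 (-0.32), with adjusted p = 0.019, 0.020 and 0.032 (edgeR). Each of these calls was lost on leaving out single libraries: Gng10 without WT 2, WT 3, Cbl-/- 1 or Cbl-/- 3 (adjusted p = 0.11 to 0.16), Gng2 without WT 1, WT 2, Cbl-/- 1 or Cbl-/- 3 (0.079 to 0.11), and Plcb4 without WT 1, WT 3 or any Cbl-/- library (0.051 to 0.077). None was called in Cbl-b-/- by edgeR, DESeq2 or limma voom, and 3 had an unadjusted p under 0.05. In DKO 8 rose and 5 fell. Gng2 (-0.60, adjusted p = 3.2e-07), the PI3-kinase gamma gene Pik3cg (-0.47, adjusted p = 7.9e-06) and Gnaq (-0.46, adjusted p = 1.3e-05) fell, and the phospholipase gene Plcb2 rose (0.57, adjusted p = 1.1e-05), by edgeR's test.

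Among genes that switch off such receptors, 3 of 15 tested were called in Cbl-/- and 9 in DKO, where 9.87% and 35.4% of all genes were. Of the 15, 1 rose and 2 fell in Cbl-/-, none was called in Cbl-b-/- (edgeR, DESeq2 and limma voom, with 1 at an unadjusted p under 0.05), and 5 rose and 4 fell in DKO. The receptor kinase gene Grk3 rose from 8.89 ± 1.4 CPM in WT to 16.9 ± 1.1 in Cbl-/- and 14.2 ± 0.044 in DKO (SD, n = 3; log2 fold changes 0.93 and 0.68, adjusted p = 9.4e-05 and 5.0e-04, edgeR). Arrb2, which encodes the beta-arrestin recruited by activated receptors, fell in DKO from 285 ± 17 to 196 ± 12 CPM (-0.54, adjusted p = 2.0e-06, edgeR). Rgs10, a regulator that speeds up the shutdown of Gi, fell in Cbl-/- (-0.47, adjusted p = 0.0011) and DKO (-0.53, adjusted p = 9.0e-05, edgeR). Rgs2 fell in Cbl-/- (-0.63, adjusted p = 0.012, edgeR), a call lost when only Cbl-/- and WT were fitted (0.058). In DKO Rgs2 went the other way and was called higher (0.47, adjusted p = 0.019, edgeR). Rgs18 also rose in DKO (0.71, adjusted p = 0.0036, edgeR).

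Of 15 genes for related chemoattractant receptors, 9 were in the table. Most of those tested were higher in DKO, where C5ar1 and C5ar2 were lower. Of 7 tested, 6 rose in DKO, 3 in Cbl-/- and 1 in Cbl-b-/-, and none fell, with a median log2 fold change of 1.288, 0.619 and 0.384. Over all genes, 19.1%, 5.68% and 0.395% were called higher in these comparisons. Gpr84, a receptor for medium-chain fatty acids, averaged 90.1 ± 3.9 CPM in Cbl-/-, 79.2 ± 9.7 in DKO, 51.3 ± 10 in Cbl-b-/- and 32.4 ± 3.4 in WT (SD, n = 3). It shared the rise in both single knockouts (1.47 and 0.66, adjusted p = 1.8e-06 and 0.030, edgeR) and rose in DKO as well (1.29, adjusted p = 1.9e-06). The Cbl-b-/- call of Gpr84 was lost with no filter, with limma voom, when only Cbl-b-/- and WT were fitted, and without WT 1, WT 3, Cbl-b-/- 2, Cbl-b-/- 3 or DKO 3 (adjusted p = 0.052 to 0.22). Ptafr, the receptor for platelet-activating factor, rose in DKO from 62.6 ± 2.3 to 108 ± 4.9 CPM (0.79, adjusted p = 1.9e-08, edgeR). Ccrl2 (1.42, adjusted p = 3.4e-06) and the chemerin receptor gene Cmklr1 (1.46, adjusted p = 0.0037, edgeR) also rose in DKO. Cmklr1 had only 7 to 70 counts per library, and Fpr1, also called in DKO, had 3 to 26, which limits their precision. The Cbl-/- median of 0.619 is the value of Fpr1, which was not called there (adjusted p = 0.62, edgeR). In Cbl-/- Ptafr rose by 0.20 and Hcar2, a niacin receptor gene, by 0.63 (adjusted p = 0.034 and 0.036, edgeR). The Ptafr call was lost without any one WT or Cbl-/- library (adjusted p = 0.065 to 0.16), and the Hcar2 call without WT 1, WT 2, Cbl-/- 2 or Cbl-/- 3 (0.070 to 0.19).

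**Figure D5:**
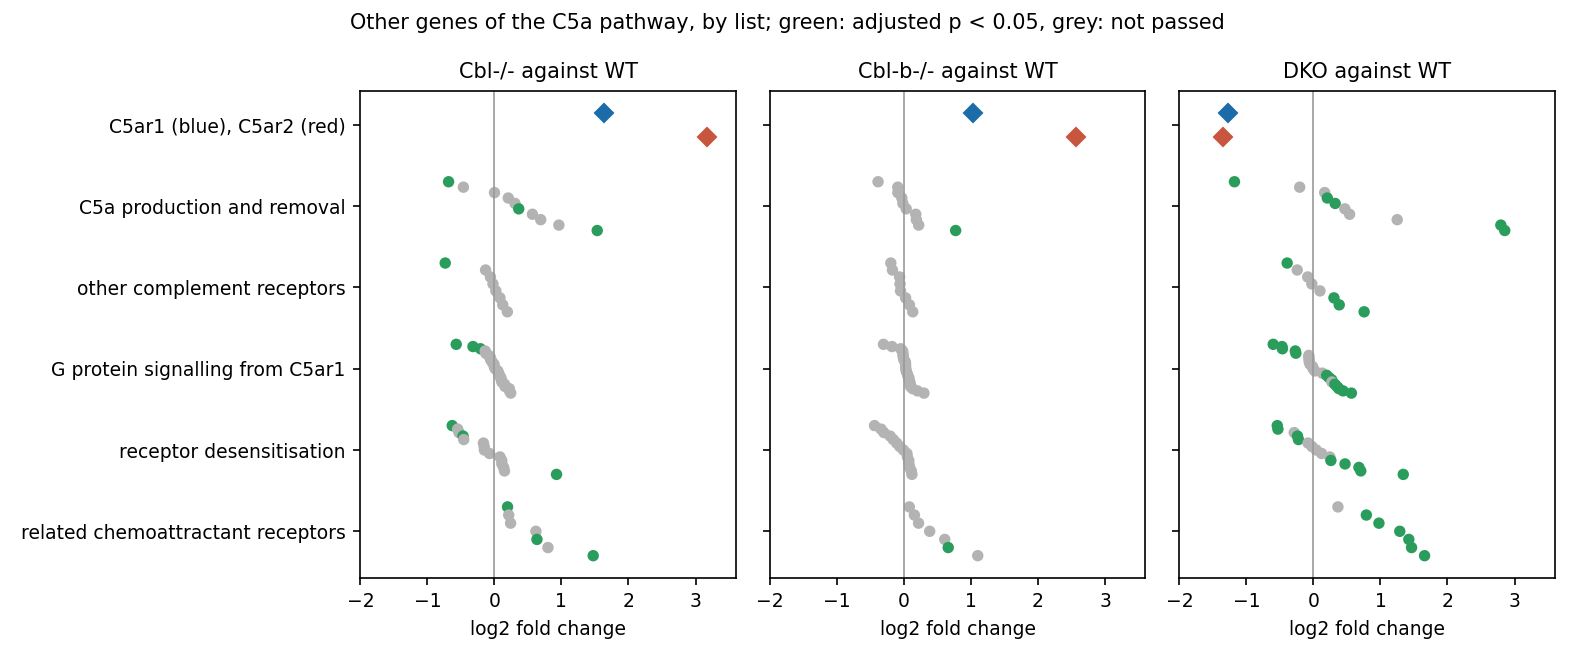
Log2 fold change against WT of C5ar1 and C5ar2 (diamonds, top) and of the 63 tested genes of 5 C5a pathway lists (circles, 1 gene each, sorted within a list, green where the adjusted p was under 0.05), for Cbl-/-, Cbl-b-/- and DKO. Of the related chemoattractant receptors 6 of 7 are called in DKO, all above 0, while the C5a receptors lie below 0.

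Markers of macrophages and of other cells were read beside these levels, because neutrophils and monocytes also carry C5aR1. All 8 macrophage markers were expressed in every group, with a summed level between 20000 and 22000 CPM in WT, 17200 and 18200 in Cbl-/-, 20400 and 22700 in Cbl-b-/-, and 17000 and 20200 in DKO. Of 14 granulocyte markers, 8 were in the table, and Ly6g, Elane, Mpo, Camp, Retnlg and Stfa1 were not. Their summed level was 41.1 to 49.7 CPM in WT and 96.3 to 123 in DKO. Between these lay Cbl-/- with 56.3 to 57.9 CPM and Cbl-b-/- with 51.7 to 64.5. Of the 7 tested, 5 rose in DKO, among them S100a9 from 0.717 to 31.0 CPM, while Mmp8 fell (-0.63). Over all genes, 19.1% were called higher and 16.3% lower in DKO. All 8 monocyte markers were in the table, with sums of 59.5 to 66.0, 85.7 to 95.6, 80.3 to 88.4 and 155 to 200 CPM in the order WT, Cbl-/-, Cbl-b-/- and DKO, and 6 of the 7 tested rose in DKO. The granulocyte and monocyte sums were thus highest in DKO, where both C5a receptors were lowest, and their part in the receptor levels was not tested.

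The remaining marker lists were low. The dendritic cell sum was 32.0 to 46.2 CPM over all libraries, most of it Irf8, and Ccr7 and Cd209a were not in the table. Mast cell, basophil and eosinophil markers (3 of 11 in the table) summed to 5.73 to 7.13 CPM in DKO, 1.57 to 1.95 in WT, 2.40 to 4.13 in Cbl-/- and 1.29 to 2.47 in Cbl-b-/-. Stromal and erythroid markers (5 of 9 in the table) summed to 12.5 to 16.1, 3.41 to 5.61, 4.82 to 7.94 and 2.02 to 2.85 CPM in the same order of genotypes. Lymphocyte markers (2 of 9 in the table) summed to at most 1.01 CPM in any library. The part of these cells was not tested.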

How the data were processed

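RNA was measured in 12 libraries, 3 per genotype. The authors deposited a table of raw counts of reads for each gene, not normalized. The genome build was GRCm38.p5, per the submitters' processing notes. The sources used here name no aligner or counting program, and do not say whether strand was used. Every gene listed had at least 1 count in WT 1, so genes unread there have no values. Symbols, positions and exon lengths came from GENCODE on GRCm38, and 15506 of 15555 genes had a symbol. All columns of the table were used.

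All 12 libraries were fitted together in edgeR 4.0.16 (R 4.3.3) with TMM scaling, 1 mean per genotype and a robust quasi-likelihood F test, after filterByExpr had removed 2884 genes and kept 12671. P-values were adjusted by Benjamini-Hochberg over all genes tested, and called means an adjusted p under 0.05. SE is the standard error of the log2 fold change. TPM was computed from the counts and exon lengths. The fit was tested on simulated data.

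The 2 receptors, the 12 lists (5 of pathway genes, 7 of markers), the tests and the naming rule were chosen with earlier results of these data known. Named genes are the targeted genes, the receptors, the tested neighbours, up to 4 members per pathway list and comparison with the smallest adjusted p, the 5 genes most correlated with each receptor, and markers by list. Hc, Gnai2 and S100a9 were added after their values were seen. Same-numbered libraries showed no strong shared shift: deviations from the group means correlated at -0.054 to 0.052 over 18 same-numbered pairs. This cannot show whether such libraries were prepared together. Replicates differed by more than counting noise (chi-square per degree of freedom 3.93 to 55.3). The alternatives changed the scaling (total counts, or size factors of DESeq2), the filter (none, or at least 5 CPM in 3 libraries) or the test (DESeq2 1.42.0, or voom in limma 3.58.1). Others used the replicate number as a block, fitted only the genotypes compared, or left out each library in turn. A protein comparison of the receptors was planned and is not analysed here. The values of 1 named gene are not reported here.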

Additional observations from a re-analysis of the deposited data

Results flagged for a closer look

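The effect of losing Cbl was compared between cells with Cbl-b and cells labelled Cbl-b-/-, as DKO minus Cbl-b-/- minus the difference of Cbl-/- from WT, on the log2 scale. For both receptors every library moved one way in one background and the opposite way in the other. This difference was -3.95 for C5ar1 and -7.09 for C5ar2, and it was not tested, because the same libraries chose the genes.

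For the targeted genes, the tested neighbours and the named pathway genes, 48 in all, the same difference was tested in edgeR with adjustment over all genes, and 23 passed. Over all genes tested, 15.7% did. Most of the 48 are pathway genes named for small adjusted p-values in comparisons of the same libraries, so nothing is read from their share. It was -0.44 for Cbl itself. Among the neighbours of the receptors it was -1.16 for Dhx34, -0.38 for Ccdc9, -0.34 for Sae1 and 0.72 for Tmem160. Among genes of complement production and receptors it was 1.61 for Cd55, 0.56 for Cd59a, 0.40 for C3ar1, 0.76 for Itgax and 0.34 for Itgb2. Among signalling genes it was -0.33 for Gnaq, 0.57 for Gng10, -0.38 for Gng2, -0.46 for Pik3cg and 0.82 for Plcb4. Among genes that switch receptors off it was -0.41 for Arrb1, -0.38 for Arrb2, 0.91 for Rgs1, 0.92 for Rgs18 and 1.54 for Rgs2. Among related receptors it was 0.83 for Ccrl2, 0.51 for Ptafr and -0.85 for Gpr84.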

How the results depend on the processing

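None of the receptor values and none of the 96 results for single named genes changed direction in the alternatives run. The C5ar1 difference between DKO and Cbl-b-/- was -2.40 with total-count scaling. Leaving out single libraries gave log2 fold changes of C5ar1 against WT between -1.40 and -1.14 in DKO, between 1.52 and 1.77 in Cbl-/- and between 0.91 and 1.17 in Cbl-b-/-. For C5ar2 they were -1.54 to -1.22, 3.13 to 3.22 and 2.49 to 2.62. With total-count scaling the median log2 fold change of all genes in DKO was -0.073 (-0.003 with TMM), and the balance of calls reversed, from 2423 higher and 2062 lower to 1773 higher and 2873 lower. When only the compared genotypes were fitted, calls over all genes were 2753 in Cbl-/- (1251 with all libraries) and 1712 between Cbl-b-/- and Cbl-/- (934), and pathway calls were 24 in Cbl-/- and 1 in Cbl-b-/-. DESeq2 called 145 genes in Cbl-b-/- (62 by edgeR), and voom 1 pathway gene. Leaving out single libraries gave 30 to 39 pathway calls in DKO, 0 to 3 in Cbl-b-/- and 8 to 21 in Cbl-/-, and 0 to 1 neighbour calls in Cbl-b-/-. Over all genes it gave 3355 to 4797 calls in DKO, 35 to 144 in Cbl-b-/-, 733 to 2206 in Cbl-/- and 533 to 1903 between the single knockouts. The highest of these all-gene counts was without DKO 3 in each of the 4 comparisons. Without WT 1 the count was 733 in Cbl-/- and 37 in Cbl-b-/-, and without WT 2 it was 801 in Cbl-/-. Leaving out 1 Cbl-/- library gave 784 to 803 in Cbl-/- and 533 to 558 between the single knockouts, and without Cbl-b-/- 2 or Cbl-b-/- 3 the Cbl-b-/- count was 35 or 41. The cause was not tested. With the replicate number as a block, the differences between Cbl-b-/- and Cbl-/- were -0.61 for C5ar1 and -0.60 for C5ar2 (adjusted p = 0.0032 and 0.00093, edgeR), and 1139, 60 and 4280 genes were called against WT. Under the block the Cbl-/- calls of Ptafr, Hcar2 and Inafm1 missed the threshold (adjusted p = 0.055 to 0.058, edgeR). Of 44 called results for single named genes, 32 were called under every alternative. C5ar2 in DKO rests on 27 to 54 counts per library, which limits its precision.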
